A study of Mus musculus with 108 samples.

Results

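Acinar cells make and secrete the digestive enzymes of the pancreas, and they were compared here by how much mRNA they held for Hspa5, the gene of BiP. The cells came from untreated male C57BL/6 mice of 12 weeks, whose pancreas was taken apart with collagenase and Accutase after a filtering step to remove islets. They were profiled one by one with a modified SMART-seq2 protocol, which amplifies full-length cDNA and has no molecular identifiers. The deposited values were TPM, each gene's share of a cell's reads corrected for transcript length and scaled to 1000000. In 87 cells they summed to within 100 TPM of that total (full-total cells), and in 21 others, numbered 92 and above, they fell further short (short-total cells). The 87 were ranked by Hspa5 TPM. The 22 highest formed the Hspa5-high cells and the 22 lowest the Hspa5-low cells, 44 of the 87 ranked cells, with the 21 short-total cells left unranked. The other 43 full-total cells lay between them. The labels put every cell in 1 group and name no animal, day or plate, so single cells could not serve as replicates and no test was possible. Differences are given with the spread between cells.

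BiP is an Hsp70-type chaperone of the endoplasmic reticulum (ER) lumen, where secreted proteins fold. When unfolded proteins accumulate, BiP leaves the sensors IRE1, PERK and ATF6. IRE1 splices Xbp1 mRNA, ATF6 is cut to release a transcription factor, and PERK slows translation while favouring that of ATF4. Together these arms, the unfolded protein response (UPR), raise chaperones, disulfide isomerases and the machinery that degrades misfolded proteins (ER-associated degradation, ERAD). Acinar cells carry an abundant rough ER and a high secretory load even at rest.

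Hspa5 stood at 171.42 TPM in the lowest Hspa5-high cell, at a median of 214.55 TPM and at 312.86 TPM in the highest (mean 220.1 ± 39.3, SD over 22 cells). In Hspa5-low cells it ran from 43.76 TPM over a median of 69.41 TPM to 86.82 TPM (mean 67.99 ± 9.81, SD over 22 cells). These values chose the cells and are a description. The bounds fell in a continuous distribution: the last cell inside the Hspa5-high group had 171.42 TPM and the first outside it 170.46 TPM, while the first Hspa5-low cell had 86.82 TPM and its neighbour outside 87.45 TPM. Hsp90b1, the ER-resident Hsp90 (GRP94), was the second marker of the comparison and took no part in the ranking. It had 35.08, 58.16 and 96.99 TPM (lowest, median and highest) in Hspa5-high cells, against 10.67, 22.30 and 55.72 TPM in Hspa5-low cells. In 13 of the 22 Hspa5-high cells Hsp90b1 was above every Hspa5-low cell, and the other 9 lay below Hspa5-low cell 55 at 55.72 TPM. The lowest of the 9, cell 33 at 35.08 TPM, also lay below Hspa5-low cell 21 at 39.59 TPM. Hspa5 lies on chromosome 2 (GRCm38, 34771970 to 34777547, + strand) and Hsp90b1 on chromosome 10 (86690209 to 86705509, - strand).

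**Figure D1:**
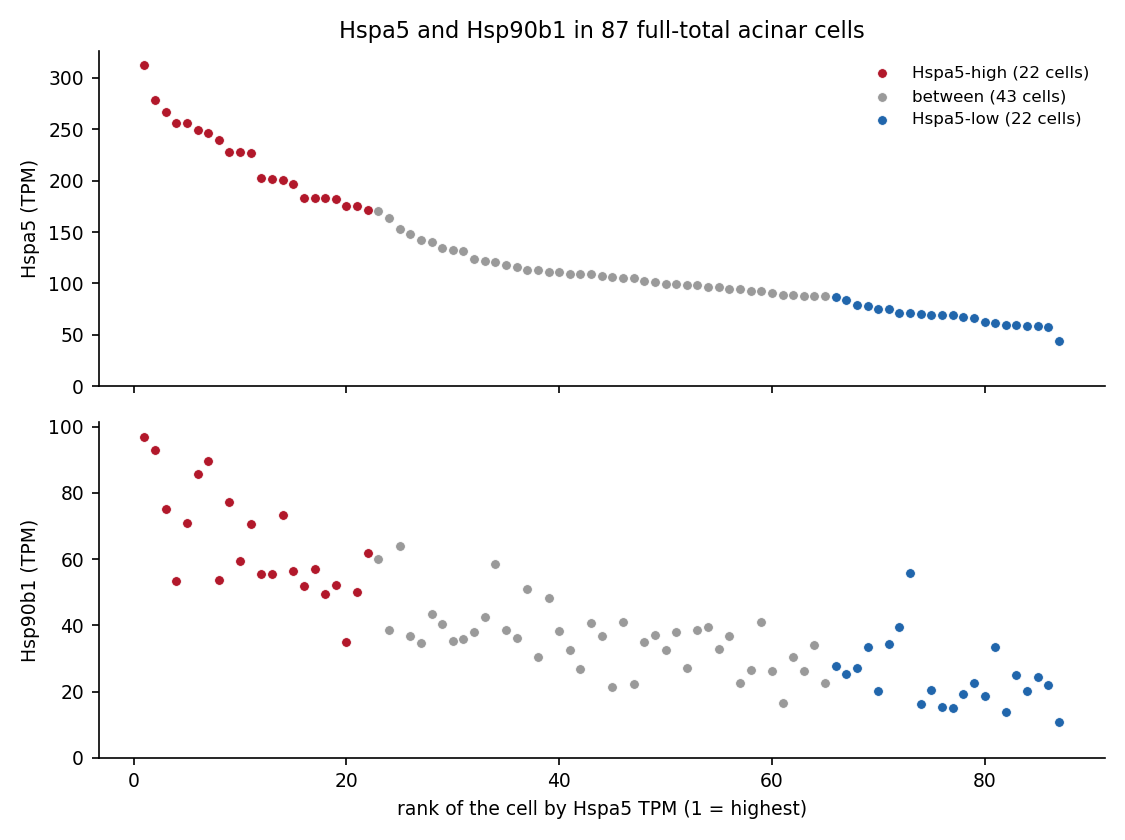
Hspa5 (top) and Hsp90b1 (bottom) in TPM for the 87 full-total cells, each point 1 cell, placed by rank in Hspa5. Hspa5-high cells (left) ran from 171.42 to 312.86 TPM and Hspa5-low cells (right) from 43.76 to 86.82 TPM with no gap at either bound, and Hsp90b1, which was not used to rank, had medians of 58.16 and 22.30 TPM in these groups.

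Of 12 acinar markers, all were at 1 TPM or more in every cell of both groups. Markers of other cell types, apart from ductal ones, were at or near 0 in nearly all of them. Summed endocrine markers had a median of 0.49 TPM in Hspa5-high and 0.25 TPM in Hspa5-low cells, with Ins1, Sst and Ppy at 0 in every cell of both. Ins2 reached 1 TPM in 0 of 22 Hspa5-high cells and in 2 of 22 Hspa5-low cells, up to 5.07 TPM. Summed ductal markers were not near 0: they had medians of 221.3 TPM in Hspa5-high and 230.2 TPM in Hspa5-low cells (lowest 160.9 and 162.0 TPM in the same order), a median of 4 of 12 markers reaching 1 TPM in each. Endothelial and stellate markers both had a median sum of 0 in each group. Cell 40, an Hspa5-high cell, was an exception with 10 of 11 endothelial markers at 1 TPM or more (93.1 TPM in sum, Plvap 25.4 TPM) and with 6924 genes at 1 TPM or more, the most of any cell. The cell-cycle-linked gene Stmn1 was high in it (108.72 TPM) and in Hspa5-low cell 31 (107.55 TPM), so counts are also given without these cells. Hspa5-high cells had a median of 4421 genes at 1 TPM or more (3273 to 6924), against 4180 genes (3636 to 4896) in Hspa5-low cells. The digestive enzymes took a median of 89.6% of the deposited total in Hspa5-high cells and 88.6% in Hspa5-low cells. The part of these differences in what follows was not tested.

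Some of the genes described below hold, before their start site, letters through which ATF6 or ATF4 is known to act. The 250 bases before each start site were searched on both strands for the ER stress response element (ERSE: CCAAT, 9 free bases, CCACG), bound by ATF6 with NF-Y, in 32851 RefSeq windows. The full ERSE stood in 37 of these windows (0.113%). It stood in 10 of 4399 windows (0.227%) of the genes counted in the comparison, and in 3 of the 15 windows of genes at least 2-fold higher in Hspa5-high cells, those of Hsp90b1, Creld2 and Syvn1. Hspa5 itself held an ERSE at bases -65 to -47. At 1.5-fold it stood in 5 of 170 windows of higher genes (2.94%) and in 0 of 30 of lower genes (0%). The window of Dnajb9, a gene at least 2-fold higher, held none. The stretches shown are those of Hspa5 and of 4 of the 5 genes at least 1.5-fold higher that hold the element, chosen for holding it. The fifth, Xlr3a, is not shown. They are RefSeq sequence (GRCm38.p6), 5′ to 3′ on the strand of the gene, with the ERSE in capitals. Creld2, Calr and the downstream match of Hsp90b1 carry it in reverse, as CGTGG followed by ATTGG.
Hspa5 (chr2:34771940-34772089, + strand): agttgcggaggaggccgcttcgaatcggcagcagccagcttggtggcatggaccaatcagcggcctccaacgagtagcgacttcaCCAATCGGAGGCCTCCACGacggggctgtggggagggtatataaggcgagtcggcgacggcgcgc
Hsp90b1 (chr10:86705518-86705671, - strand): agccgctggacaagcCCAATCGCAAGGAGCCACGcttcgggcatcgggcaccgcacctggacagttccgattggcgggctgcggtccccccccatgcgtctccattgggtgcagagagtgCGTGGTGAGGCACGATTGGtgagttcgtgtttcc
Creld2 (chr15:88819505-88819553, + strand): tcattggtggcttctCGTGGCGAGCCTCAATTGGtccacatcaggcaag
Syvn1 (chr19:6046517-6046565, + strand): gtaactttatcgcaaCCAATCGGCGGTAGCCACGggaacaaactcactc
Calr (chr8:84847060-84847108, - strand): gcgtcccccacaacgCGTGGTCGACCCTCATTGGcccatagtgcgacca

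Other elements stood before some of the other higher genes. Herpud1 held the compact ERSE-II (ATTGG, 1 free base, CCACG), which stood in 10 of all windows (0.0304%). Chac1 and Fgf21, known targets of ATF4, held the C/EBP-ATF element (TGATGNAA), which Herpud1 also carried elsewhere in its window. These were the 3 of 15 windows of genes at least 2-fold higher that held it. The element stood in 3.45% of all windows and in 2.16% of those of the genes counted. At 1.5-fold it stood in 6 of 170 windows of higher genes (3.53%) and in 2 of 30 of lower genes (6.67%). The capitals mark ERSE-II in Herpud1 and the C/EBP-ATF element, in reverse, in Chac1 and Fgf21. A match is a string of letters and was not shown to be bound in these cells.
Herpud1 (chr8:94386362-94386402, + strand): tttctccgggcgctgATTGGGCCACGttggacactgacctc
Chac1 (chr2:119351034-119351071, + strand): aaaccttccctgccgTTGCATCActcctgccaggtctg
Fgf21 (chr7:45615607-45615644, - strand): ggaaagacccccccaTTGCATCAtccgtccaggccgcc

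Across the 4462 genes counted (mean of at least 1 TPM over the full-total cells, and 1 TPM or more in at least 9 of them, Hspa5 left out), the size of a change was the difference of mean log2(TPM + 1), Hspa5-high minus Hspa5-low, called simply the difference below. It understates the change of genes of a few TPM. At 2-fold, a difference of 1 or more, 24 genes were higher in Hspa5-high cells (0.538% of those counted) and 11 were lower (0.247%). At 1.5-fold, 173 genes were higher (3.88%) and 37 lower (0.829%). The difference was above 0 for 2944 genes (66%) with a median over all genes of 0.10, so a small positive value was the common state. Without cells 31 and 40, 24 genes were higher and 14 lower. Of the 24, 8 were genes of the ER or its degradation pathway (Dnajb9, Syvn1, Pdia4, Hsp90b1, Herpud1, Pdia3, Hyou1 and Creld2), and Chac1, Ddit3 and Fgf21 are targets of the PERK and ATF4 arm. The rest of the 24 were Reg3b, Reg2, Hspa8, the identical rows Rnu3b1 to Rnu3b4, Snord118, Kctd14, Snrpg, Ttr, Tuba1c and Ptp4a1, of which the last 5 are outside the rule for named genes and were listed after their values were seen.

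A stricter view counted, for each gene, the Hspa5-high cells above every Hspa5-low cell. For 25 genes (0.56%) at least 11 of the 22 were, and for none (0%) were 11 below. Syvn1 and Pdia3 had 21 such cells, Ssr1 20, Pdia4 18, Dnajc3 and Creld2 16, Dnajb9, Sdf2l1 and Hyou1 15, Manf 14, and Calr, Hsp90b1 and Herpud1 13. Dnajc3 (P58IPK), a J-protein and inhibitor of PERK, had a difference of only 0.49.

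The ER lumen chaperones were the list with the highest median. Counts for this and the later lists stand beside the shares over all genes: 0.538% at least 2-fold higher, 3.88% at least 1.5-fold higher and 66% above 0. Of 30 genes on the list 22 were counted, 4 of them at least 2-fold and 10 at least 1.5-fold higher in Hspa5-high cells, 19 with a difference above 0, and their median difference was 0.50 against 0.10 over all genes. Dnajb9 (ERdj4, a J-protein that recruits BiP) had 4.86, 12.5 and 31.7 TPM (lowest, median, highest) in Hspa5-high cells, against 0.30, 4.24 and 10.9 TPM in Hspa5-low cells, a difference of 1.62. It was above every Hspa5-low cell in 15 of 22 Hspa5-high cells. Hyou1 (GRP170, the nucleotide exchange factor of BiP) had 1.74, 6.23 and 14.3 TPM in Hspa5-high cells, against 0.15, 2.43 and 5.06 TPM in Hspa5-low cells, a difference of 1.11. Creld2, a secreted ER-stress protein, had 33.7, 68.5 and 102.3 TPM in Hspa5-high cells, against 12.5, 31.9 and 54.4 TPM in Hspa5-low cells, a difference of 1.09. Their ranges overlapped, with 15 and 16 of the 22 Hspa5-high cells above all Hspa5-low cells. Manf, a BiP-binding secreted factor, differed by 0.85 with medians of 103.4 TPM in Hspa5-high and 54.8 TPM in Hspa5-low cells. Sdf2l1, a partner of Dnajb11 in the lumen, differed by 0.74 with medians of 74.1 TPM in Hspa5-high and 44 TPM in Hspa5-low cells.

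Other abundant residents of the lumen were nearly level between the groups. Ppib, the ER cyclophilin, had 131.6, 184.5 and 230.0 TPM in Hspa5-high cells, against 130.8, 182.7 and 229.8 TPM in Hspa5-low cells, a difference of 0.00. Fkbp11, an ER prolyl isomerase abundant in secretory cells, differed by -0.04 with medians of 132.4 TPM in Hspa5-high and 142.5 TPM in Hspa5-low cells. Both were not level in short-total cells, between the 5 highest and 5 lowest in Hspa5. There Ppib differed by 0.61 and Fkbp11 by 0.93, with Fkbp11 medians of 160.9 TPM in the high and 85.3 TPM in the low cells. The lectin chaperones Calr and Canx, which hold glycoproteins, differed by 0.89 and 0.28, and they were read after their values were seen. Between the 2 groups the list therefore held both genes more than 2-fold apart and abundant genes with ranges that lay on top of each other.

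The disulfide isomerases showed the same division between the 2 groups. Of 23 genes 18 were counted, 2 were at least 2-fold and 3 at least 1.5-fold higher, and the median difference was 0.18. Pdia3 (ERp57, which works on glycoproteins with calreticulin and calnexin) had 15.6, 30.1 and 39.1 TPM in Hspa5-high cells, against 7.10, 11.7 and 17.8 TPM in Hspa5-low cells, a difference of 1.26. In 21 of 22 Hspa5-high cells it was above every Hspa5-low cell. Pdia4 (ERp72) had 7.80, 19.5 and 32.3 TPM in Hspa5-high cells, against 1.70, 6.59 and 14.2 TPM in Hspa5-low cells, a difference of 1.48, with 18 of 22 cells above all Hspa5-low cells. The pancreas-enriched Pdia2, the most abundant isomerase here, differed by 0.03 with medians of 934.9 TPM in Hspa5-high and 889.7 TPM in Hspa5-low cells. P4hb, the founding member (PDI), differed by 0.26 with medians of 162.8 and 136.5 TPM in the Hspa5-high and Hspa5-low cells, and the peroxiredoxin Prdx4 by 0.03.

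Components of the Hrd1 degradation complex led the ERAD list. Syvn1, the Hrd1 ubiquitin ligase itself, had 5.79, 11.6 and 22.9 TPM in Hspa5-high cells, against 1.57, 3.495 and 8.30 TPM in Hspa5-low cells, a difference of 1.56. It was above every Hspa5-low cell in 21 of 22 Hspa5-high cells, so the ranges overlapped through 1 cell on the Hspa5-high side. Herpud1, which brings Hrd1 together with its partners, had 62.3, 170.1 and 364.5 TPM in Hspa5-high cells, against 22.6, 68.9 and 135.6 TPM in Hspa5-low cells, a difference of 1.27. Sel1l, the adaptor of Hrd1, differed by 0.55 and Vcp, the ATPase that extracts substrates, by 0.60. Derl3 and Edem2, which pass substrates to the complex, differed by 0.25 and 0.03. Over the ERAD list, 25 of 29 genes were counted, 2 were at least 2-fold and 3 at least 1.5-fold higher, 22 were above 0 (66% over all genes), and the median was 0.25.

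**Figure D2:**
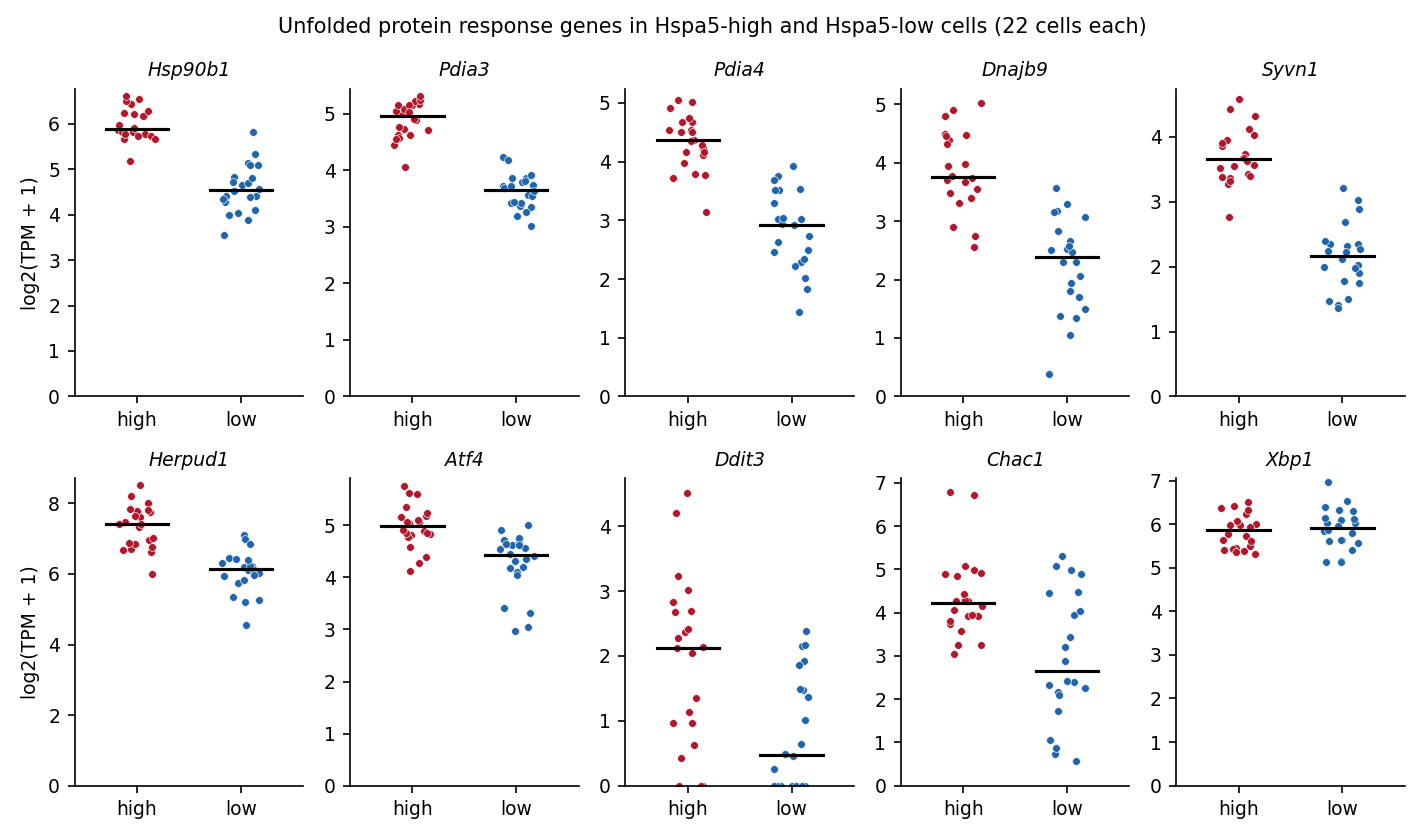
Levels of 10 UPR genes as log2(TPM + 1), each point 1 cell and each bar the group's median, Hspa5-high cells left and Hspa5-low cells right in each panel (22 each). Pdia3 and Syvn1 separated the groups in all but 1 Hspa5-high cell each, Ddit3 and Chac1 overlapped widely, and Xbp1 ranges overlapped, with medians of 57.1 and 59.3 TPM.

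The sensors and transcription factors of the UPR were not higher as one. Of 24 genes 14 were counted, 2 were at least 2-fold and 3 at least 1.5-fold higher in Hspa5-high cells, and the median difference was 0.30. Xbp1, the factor made active by IRE1, had 38.7, 57.1 and 90.5 TPM in Hspa5-high cells, against 33.9, 59.3 and 123.6 TPM in Hspa5-low cells, a difference of -0.06. Its medians ran opposite ways by cell number: 63.1 TPM in Hspa5-high and 57.04 TPM in Hspa5-low cells numbered 1 to 48, and 44.5 TPM in Hspa5-high and 69.1 TPM in Hspa5-low cells numbered 49 to 91. TPM of the whole gene do not tell its spliced from its unspliced form. Atf6 differed by 0.22 with medians of 1.49 TPM in Hspa5-high and 1.11 TPM in Hspa5-low cells, and Eif2ak3, the gene of PERK, by 0.57 with medians of 4.72 and 2.77 TPM in the same order. Atf4 had 16.4, 30.6 and 53.4 TPM in Hspa5-high cells, against 6.81, 20.6 and 31.1 TPM in Hspa5-low cells, a difference of 0.71. Nupr1, a stress-response factor and the most abundant gene of the list, had a difference of -0.29, with medians of 553.3 TPM in Hspa5-high and 695.7 TPM in Hspa5-low cells. Between the highest and lowest Hspa5 cells of each number range it differed by 0.04 in cells 1 to 48 and -0.61 in cells 49 to 91, and by 0.29 in short-total cells.

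Ddit3, Chac1 and Fgf21 differed by more than Atf4 itself and varied widely between cells. Ddit3 (CHOP, linked to prolonged ER stress) had 0.00, 3.37 and 21.8 TPM in Hspa5-high cells, against 0.00, 0.39 and 4.23 TPM in Hspa5-low cells, a difference of 1.11. It reached 1 TPM in 15 of 22 Hspa5-high cells (68.2%, exact 95% interval 45.1% to 86.1%, counting error only) and in 9 of 22 Hspa5-low cells (40.9%, 20.7% to 63.6%). Chac1, an enzyme that breaks down glutathione, had 7.26, 17.6 and 110.2 TPM in Hspa5-high cells, against 0.48, 5.36 and 38.8 TPM in Hspa5-low cells, a difference of 1.40. The 2 highest cells of both genes were the Hspa5-high cells 83 (Chac1 110.21 TPM, Ddit3 21.84 TPM) and 38 (103.91 and 17.51 TPM). Fgf21, a secreted metabolic hormone that is abundant in acinar cells, had 0.00, 13.02 and 115.2 TPM in Hspa5-high cells, against 0.00, 3.57 and 35.7 TPM in Hspa5-low cells, a difference of 1.52. Only 2, 8 and 5 of the 22 Hspa5-high cells were above every Hspa5-low cell for Chac1, Ddit3 and Fgf21.

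Of the genes of amino acid supply in the integrated stress response list, 33 of 35 were counted, none was 2-fold and 5 were at least 1.5-fold higher, and the median difference was 0.23. Slc7a3, a cationic amino acid transporter, differed by 0.87 with medians of 2.20 TPM in Hspa5-high and 0.20 TPM in Hspa5-low cells. Cth, an enzyme of cysteine synthesis, differed by 0.79 (8.05 TPM in Hspa5-high, 4.14 TPM in Hspa5-low) and the tRNA synthetases Tars and Nars by 0.77 and 0.67. Asns, asparagine synthetase and a well-known ATF4 target, differed by 0.12 with medians of 57.6 and 58.1 TPM in Hspa5-high and Hspa5-low cells, and Phgdh, of serine synthesis, by 0.23.

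Machinery that feeds proteins into the ER and carries them on was higher by small amounts in most members between the 2 groups. The cells between the groups showed no such trend, while the short-total cells did (values below). Of the 39 genes of translocation and glycosylation, all counted, none was 2-fold and 7 were at least 1.5-fold higher (3.88% over all genes). Their median was 0.28 with 36 above 0 (66% over all genes). Ssr1, a translocon-associated subunit, was the clearest: it had 3.08, 5.46 and 7.10 TPM in Hspa5-high cells, against 1.97, 2.98 and 4.21 TPM in Hspa5-low cells, and 20 of 22 Hspa5-high cells were above all Hspa5-low cells although the difference was 0.70. Rpn1, of the oligosaccharyltransferase, differed by 0.76 with medians of 9.54 TPM in Hspa5-high and 5.88 TPM in Hspa5-low cells. Abundant subunits such as Sec61b (0.26) and Ssr4 (0.10), and the signal peptidase subunit Sec11c (0.00 after rounding), differed less. In ER to Golgi traffic, 39 of 43 genes were counted, none was 2-fold and 7 were at least 1.5-fold higher, 37 were above 0 and the median was 0.33. Sec23b of the COPII coat and Copb1 of the COPI coat both differed by 0.72, and Kdelr2, which returns BiP and its kin to the ER, by 0.66 with medians of 15.8 TPM in Hspa5-high and 8.31 TPM in Hspa5-low cells.

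**Figure D3:**
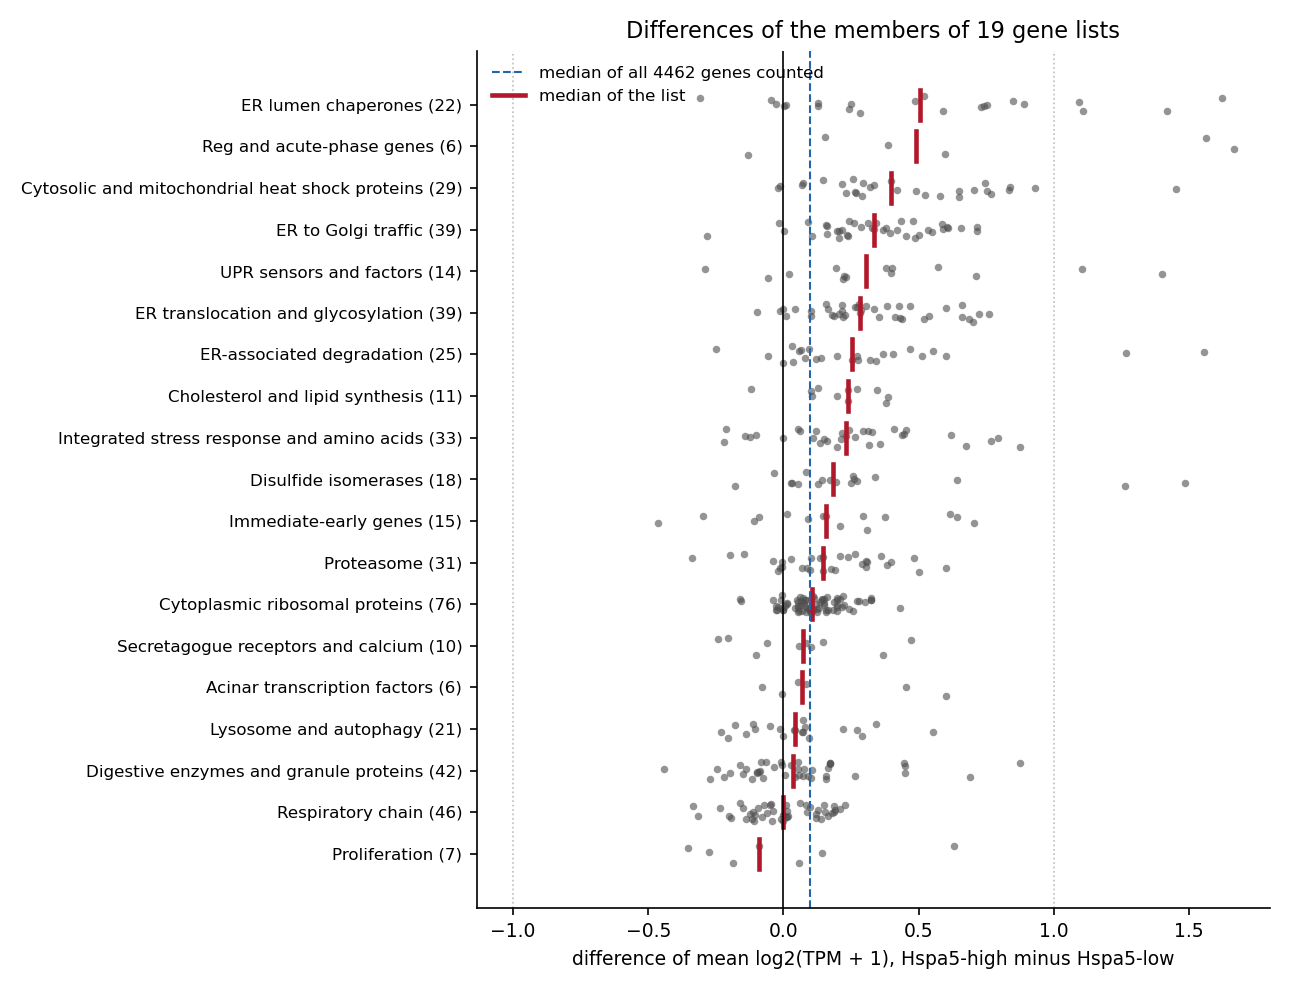
Difference of mean log2(TPM + 1), Hspa5-high minus Hspa5-low, for every counted member of 19 lists (grey points, number in brackets), with the median of each list (red bar), the median of all 4462 genes (dashed) and 2-fold in either direction (dotted). ER lumen chaperones had the highest median (0.50) and proliferation genes the lowest (-0.09).

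Most chaperones outside the ER had a positive difference among the full-total cells. Of 32 cytosolic and mitochondrial heat shock genes 29 were counted, 1 was at least 2-fold and 10 at least 1.5-fold higher, 27 were above 0, and the median was 0.40. In short-total cells, between the 5 highest and 5 lowest in Hspa5, the median was 0.02 with 15 of 29 above 0, below the 0.16 over all genes. Hspa8, the constitutive cytosolic Hsp70 (Hsc70), had 38.2, 79.5 and 276.8 TPM in Hspa5-high cells, against 12.4, 25.9 and 115.3 TPM in Hspa5-low cells, a difference of 1.45. The highest value of each group belonged to the cells with cell-cycle genes, 40 and 31. Hspb1 differed by 0.93, Hsph1 by 0.84 and the mitochondrial Hspa9 by 0.83, with Hspa9 medians of 9.16 TPM in Hspa5-high and 4.08 TPM in Hspa5-low cells. Hsp90ab1, the constitutive cytosolic Hsp90, differed by 0.07 with medians of 30.5 and 30.8 TPM in Hspa5-high and Hspa5-low cells. Immediate-early genes, known to respond quickly to handling, had a median difference of 0.16, with 3 of 15 counted genes at least 1.5-fold higher. The sign turned with cell number: the median between the highest and lowest Hspa5 cells was 0.54 in cells 1 to 48 (14 of 15 above 0), -0.31 in cells 49 to 91 (7 of 15) and -0.22 in short-total cells (5 of 15). Fos had 0.00, 10.1 and 263.8 TPM in Hspa5-high cells, against 0.00, 17.95 and 265.0 TPM in Hspa5-low cells, and Jun medians were 9.47 and 10.5 TPM in the same order.

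The digestive enzymes took most of a TPM total that is the same in every cell, so their summed level could move little between the groups whatever the cells held, and the values below are shares. Of 43 digestive enzyme and granule genes 42 were counted, none was 2-fold and 2 were at least 1.5-fold higher, 23 were above 0, and the median difference was 0.04, or -0.09 when cells were scaled by the median of ratios. Prss2, the anionic trypsinogen, had medians of 104450 TPM in Hspa5-high and 98708 TPM in Hspa5-low cells and a difference of 0.06. The elastase Cela2a differed by 0.04 and the chymotrypsinogen Ctrb1 by -0.14. The amylase Amy2a1 differed by 0.45 with medians of 88106 TPM in Hspa5-high and 74522 TPM in Hspa5-low cells, its lowest Hspa5-low value being 3942 TPM. Prss1 differed by 0.88 (medians 51.6 TPM in Hspa5-high, 21.5 TPM in Hspa5-low). Reads of the trypsinogen and amylase families can be shared among near-identical copies, so their separate values are uncertain. Of the acinar transcription factors, Ptf1a differed by 0.60 with medians of 14.2 TPM in Hspa5-high and 9.88 TPM in Hspa5-low cells, Bhlha15 (Mist1) by 0.45 and Rbpjl by -0.08.

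Large classes of housekeeping genes held few members 1.5-fold apart. Of the 76 cytoplasmic ribosomal protein genes none was 1.5-fold apart and the median was 0.11, and of the 46 respiratory chain genes none was and the median was 0.00. The proteasome (31 genes) had a median of 0.15 with 1 gene at least 1.5-fold higher, Psmc6. Cholesterol and lipid synthesis (11 genes counted), lysosome and autophagy (21) and secretagogue receptors with calcium handling (10) had medians of 0.24, 0.04 and 0.07 and no gene 1.5-fold apart. Proliferation genes (7 counted) had a median of -0.09, and the highest values in each group were those of cells 40 and 31: Stmn1 had a median of 0.00 TPM in Hspa5-high and 0.15 TPM in Hspa5-low cells. No counted member of any of the 19 lists was lower by 1.5-fold in Hspa5-high cells.

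Metallothioneins, small proteins that bind zinc and are made in response to it, were the main protein-coding genes lower in Hspa5-high cells. Mt2 had 0.00, 7.46 and 374.1 TPM in Hspa5-high cells, against 1.33, 139.9 and 398.9 TPM in Hspa5-low cells, a difference of -3.08. Mt1 had 20.6, 194.5 and 1101 TPM in Hspa5-high cells, against 58.01, 660.7 and 1268 TPM in Hspa5-low cells, a difference of -1.47. Between the highest and lowest Hspa5 cells of each range, Mt1 differed by -0.45 in cells 1 to 48, short of 1.5-fold, and by -2.35 in cells 49 to 91, and Mt2 by -1.24 and -4.22. The ranges overlapped: Hspa5-high cells 40, 38 and 8 held the highest Mt1 and Mt2 of their group, at levels among those of Hspa5-low cells. Mt2 also followed cell number. It was at most 58.13 TPM in cells 72 to 91 and at least 56.42 TPM in cells 49 to 71. Lower middle cells 73, 74 and 84 had 0.79, 16.13 and 21.82 TPM. Upper middle cells 58, 62, 66 and 70 had 143.7, 247.4, 108.5 and 232.7 TPM. Of cells 49 to 91, the Hspa5-high cells were numbered 72 to 90 and the Hspa5-low cells 52 to 69. The Mt2 difference there cannot be told apart from cell number. The Spearman correlation of Mt1 with Mt2 was 0.94 within the Hspa5-high cells and 0.83 within the Hspa5-low cells (22 cells each). The genes are neighbours on chromosome 8 (GRCm38, Mt2 at 94172664 to 94173568 and Mt1 at 94179082 to 94180327, + strand). Their RefSeq windows held the metal response element (TGCACNC or TGCGCNC), in capitals here, with the last match of Mt2 in reverse (-50 to -44). The element also stood in 21.4% of all windows and in 30.1% of those of the genes counted. Of the 15 windows of genes at least 2-fold higher in Hspa5-high cells, 6 held it.
Mt2 (chr8:94172380-94172589, + strand): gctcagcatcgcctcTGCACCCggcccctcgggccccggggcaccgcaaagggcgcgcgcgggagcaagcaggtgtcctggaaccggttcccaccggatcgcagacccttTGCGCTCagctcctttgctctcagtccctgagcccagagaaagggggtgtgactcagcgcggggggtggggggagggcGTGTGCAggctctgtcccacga
Mt1 (chr8:94179051-94179087, + strand): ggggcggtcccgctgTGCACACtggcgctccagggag

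The other genes at least 2-fold lower in Hspa5-high cells were mostly RNAs without a protein product. Rn7s1 and Rn7s2, copies of the 7SL RNA of the signal recognition particle with identical values in every cell, had 321.4, 952.4 and 4940 TPM in Hspa5-high cells, against 503.8, 2534 and 8534 TPM in Hspa5-low cells, a difference of -1.22. The pseudogene Gm10443 differed by -1.98 with medians of 27.6 TPM in Hspa5-high and 86.8 TPM in Hspa5-low cells. Gm37750 and Gm44364 had a median of 0.00 TPM in both groups. Gm12976 (-1.13), Gm6472 (-1.0, outside the rule for named genes), the kallikrein Klk1b24 (-1.08) and the kinase Alpk2 (-1.09) completed the 11. The small nucleolar RNA rows Rnu3b1 to Rnu3b4 and Snord118 were among the 24 higher genes. The U3 copies Rnu3b1 to Rnu3b4, 1 measurement repeated over identical rows (difference 1.57), had 0.00, 11.8 and 61.9 TPM in Hspa5-high cells, against 0.00, 2.91 and 27.5 TPM in Hspa5-low cells, and Snord118 (U8) differed by 1.34. The libraries were primed with oligo(dT), and these RNAs normally have no poly(A) tail. How this bears on their values was not tested.

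Reg3b and Reg2, secreted lectins of the pancreatic stress response, had the first and the seventh highest differences among the 24 genes, 1.67 and 1.56, but these moved with cell number. Reg3b had 0.00, 104.8 and 912.7 TPM in Hspa5-high cells, against 0.00, 26.1 and 282.8 TPM in Hspa5-low cells. Reg2 had 4.64, 273.3 and 2505 TPM in Hspa5-high cells, against 0.00, 82.6 and 2672 TPM in Hspa5-low cells. Cells numbered 49 to 91 made up 11 of the 22 Hspa5-high and 8 of the 22 Hspa5-low cells, and Reg2 was far higher in them. Within cells 1 to 48 its medians were 33.03 TPM in Hspa5-high (11 cells) and 17.2 TPM in Hspa5-low cells (14 cells), and within cells 49 to 91 they were 1033 TPM in Hspa5-high (11 cells) and 1131 TPM in Hspa5-low cells (8 cells). Between the 10 highest and 10 lowest Hspa5 cells of 49 to 91 the order was the other, 1068 TPM in the high and 725.3 TPM in the low cells (difference 0.53), and in cells 1 to 48 the difference between the 11 highest and 11 lowest was 0.98. Reg3b kept its order in both ranges, with medians of 24.99 against 7.14 TPM in cells 1 to 48 and 263.9 against 156.1 TPM in cells 49 to 91, Hspa5-high first in each. Reg1, the most abundant of the family, differed by -0.13. Of the 12 genes on the Reg and acute-phase list 6 were counted, 2 were at least 2-fold and 3 at least 1.5-fold higher, and the median of 0.49 stood beside medians of 0.53 in cells 1 to 48 and 0.13 in cells 49 to 91 in the comparison within ranges described next. The division at cell 48 is not a batch named in the labels, and the numbers cannot be told apart from animals or days.

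**Figure D4:**
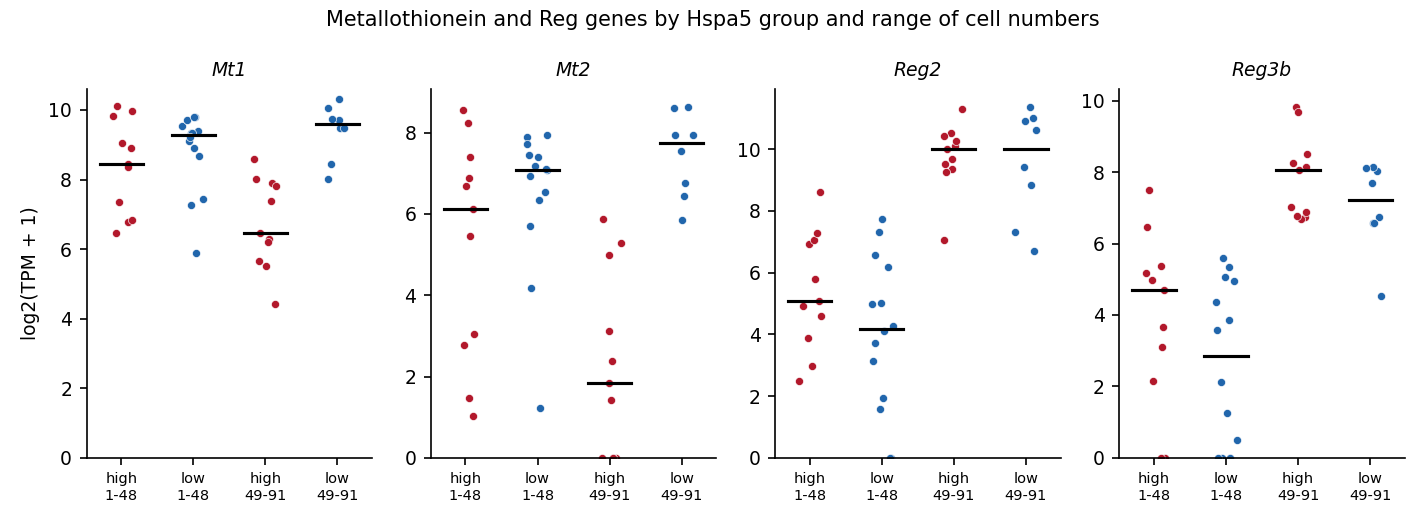
Mt1, Mt2, Reg2 and Reg3b as log2(TPM + 1) in cells 1 to 48 and 49 to 91, Hspa5-high left of Hspa5-low in each range, each point 1 cell and each bar the median. Mt1 and Mt2 medians were lower in Hspa5-high cells in both ranges, and Reg2 medians differed far more between ranges than between Hspa5 groups. Of cells 49 to 91, the Hspa5-high cells were numbered 72 to 90 and the Hspa5-low cells 52 to 69.

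The comparison was repeated within each range of cell numbers, with a high and a low side in each. Cell number still went with Hspa5 inside the ranges. Of cells 49 to 91, the Hspa5-high cells were numbered 72 to 90 and the Hspa5-low cells 52 to 69. Of cells 1 to 48, most Hspa5-low cells were numbered 5 to 26 and most Hspa5-high cells 32 to 47. The repeat therefore does not separate Hspa5 from cell number. The sides were the 11 highest and 11 lowest cells in Hspa5 of cells 1 to 48 (Hspa5 medians 201.0 and 69.4 TPM) and the 10 highest and 10 lowest of cells 49 to 91 (237.1 and 69.1 TPM). These cells overlap the groups above, but the ranges do not overlap each other. All 24 higher and 11 lower genes had the same direction in both ranges, a count that the shared cells favour. At 2-fold, 37 genes (0.829%) were higher in the first range and 53 (1.19%) in the second. The 7 genes higher in both, 18.9% of the first count and 13.2% of the second, were Dnajb9, Hsp90b1, Hspa8, Pdia3, Pdia4, Syvn1 and Ttr. Lower were 13 (0.291%) and 25 genes (0.56%), with 4 in both (30.8% and 16%): Mt2, Gm10443, Gm12976 and Gm37750. Mt2 medians were 2.11 TPM in the high and 146.8 TPM in the low cells of 49 to 91, and 69.2 TPM in the high and 134.3 TPM in the low cells of 1 to 48. This change of size between the ranges was not tested.

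The 43 cells between the groups, which the comparison did not use, gave a graded picture for the chaperones. Median Hsp90b1 was 22.30 TPM in Hspa5-low cells, 32.55 TPM in the lower middle (21 cells), 38.38 TPM in the upper middle (22 cells) and 58.16 TPM in Hspa5-high cells. The ranges of neighbouring bands overlapped. Over the 43 middle cells the Spearman correlation with Hspa5 was 0.57 for Hsp90b1, 0.48 for Pdia4, 0.43 for Pdia3, 0.42 for Hyou1 and 0.41 for Creld2, and 24 of 4462 genes (0.538%) reached 0.4. Each point is 1 cell whose values share a library and a fixed total. The correlation was 0.26 for Syvn1, 0.25 for Chac1, 0.14 for Herpud1, 0.13 for Atf4 and 0.10 for Ddit3. Herpud1 medians were 84.3 TPM in the lower and 85.7 TPM in the upper middle cells, so its step lay between these and the Hspa5-high cells at 170.1 TPM. Over the 22 counted ER lumen chaperones the median correlation in the middle cells was 0.05 with 15 above 0, against -0.02 over all genes, so the gradient lay in some members of the list. The other ER and UPR lists had medians below 0. These were -0.04 for translocation and glycosylation (17 of 39 above 0) and -0.04 for ER to Golgi traffic (17 of 39). ERAD had -0.05 (11 of 25), the disulfide isomerases -0.08 (7 of 18) and the UPR sensors and factors -0.03 (5 of 14). Mt1 and Mt2 correlated at -0.38 each, and Mt2 medians over the 4 bands, in order of increasing Hspa5, were 139.9, 164.7, 28.3 and 7.46 TPM. Cell number was not held equal over the bands.

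**Figure D5:**
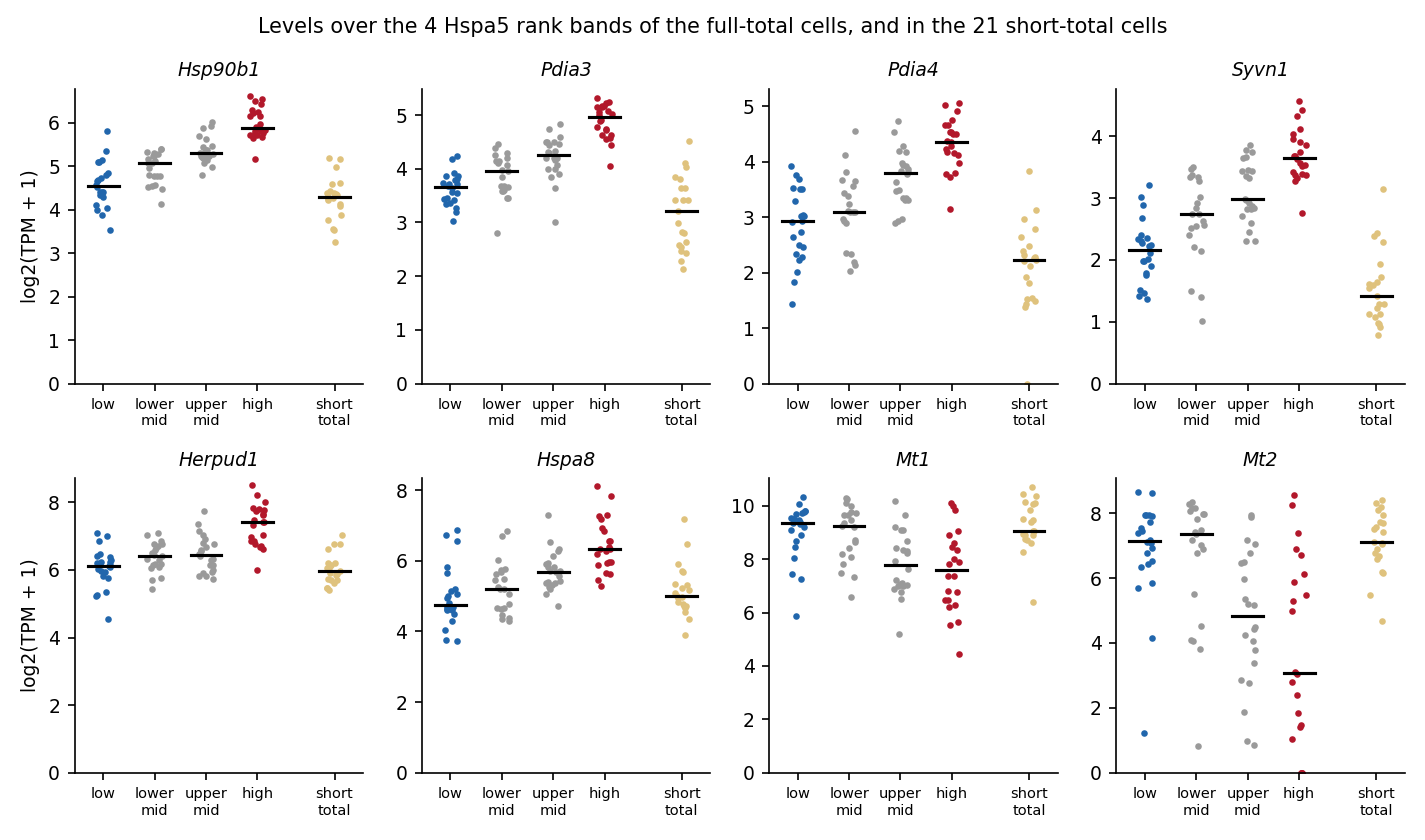
Levels of 8 genes as log2(TPM + 1) in the 4 bands of Hspa5 rank, low to high, and apart from them in the 21 short-total cells, each point 1 cell and each bar the median. Hsp90b1 medians were higher in each next band (22.30, 32.55, 38.38 and 58.16 TPM) while Herpud1 was level across the middle bands, and Mt2 medians were 164.7 and 28.3 TPM in the lower and upper middle cells.

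Within the Hspa5-high group Hspa5 still tracked Hsp90b1 (Spearman 0.69, 22 cells), Atf4 (0.64) and Herpud1 (0.57), but Chac1 at only 0.06. The tracking was not particular to UPR genes. Atp2a2 of the calcium list had 0.78, and the immediate-early genes Ier2 and Jun had 0.70 and 0.65, though Gadd45g had -0.04. The ER chaperone Hyou1 had -0.07. Herpud1 and Atf4 were the pair of UPR genes with the highest correlation there, 0.82. The same pair had 0.57 over the 43 middle cells and 0.20 within the Hspa5-low group. The genes most like Hspa5 over all 87 full-total cells were Hsp90b1 (0.84), Pdia3 (0.79), Syvn1 (0.74), Pdia4 (0.73) and Ssr1 (0.70). These values include the cells chosen by rank.

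The 21 short-total cells had less Hspa5, a median of 50.95 TPM (24.60 to 97.75 TPM), and were compared among themselves, the 5 highest against the 5 lowest in Hspa5. At 2-fold, 126 genes (2.82%) were higher and 43 (0.964%) lower. Of the 24 genes above, 12 were higher there too, where 65.4% of all genes had a difference above 0. Pdia3 (1.54), Creld2 (1.19), Pdia4 (1.17), Syvn1 (0.89), Hyou1 (0.83) and Hsp90b1 (0.80) were higher in the high cells, and Herpud1 was level (0.03). Ddit3 (-1.28), Fgf21 (-0.74), Chac1 (-0.62) and Hspa8 (-0.20) were on the other side. The integrated stress response list as a whole was not, with a median of 0.28 and 27 of 33 above 0, and Asns was at 0.34. The ER lumen chaperones had a median of 0.61 in this comparison and 21 of 22 above 0, against 0.16 over all genes. Their correlation with Hspa5 over the 21 cells had a median of 0.44 against 0.07 over all genes, and 397 genes (8.9%) reached 0.4. Between the same 5 and 5 cells, the median difference was 0.50 for translocation and glycosylation (37 of 39 above 0). It was 0.36 for ER to Golgi traffic (34 of 39), 0.45 for ERAD (24 of 25) and 0.39 for the disulfide isomerases (17 of 18). The UPR sensors and factors had 0.35 (9 of 14). With 5 cells a side these values rest on few cells.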

How the data were processed

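The authors' deposited table held TPM per Ensembl gene for single mouse acinar cells. Sums of about 1000000 in most cells set the unit. Per the submitters' processing notes the tools were RSEM 1.2.21, STAR 2.4.2a and edgeR, with build mm10. Their roles are not given in the sources used here. Per the labels' protocols, cDNA was primed with oligo(dT) and 24 cells also held spike-in RNA. TPM hold no depth, and that of the cells is unknown. Of 45195 rows, 44548 were matched to a gene symbol, and the row of higher mean was kept where a symbol repeated.

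Full-total cells were ranked by Hspa5 TPM (ties by lower cell number). Differences are of mean log2(TPM + 1), pseudocount 1. The only intervals are Clopper-Pearson intervals on shares of cells, which cover counting error only. The members and the lists were chosen with earlier results of these data known. Doublets were not called, and the ranking left out no cell for its markers. The labels name no animal, so nothing shows how many mice the cells represent, and no p-value was computed.

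The named genes were, from each list, the 4 with the highest mean and the 4 with the largest absolute difference. To these were added the 15 largest positive and 10 largest negative differences, the 10 highest and 5 lowest correlations with Hspa5, and 9 genes of interest. Others were chosen after their values were seen. Coordinates of genes are from GENCODE M21 (GRCm38), and promoter windows from RefSeq (GRCm38.p6), found for 3463 of the 4462 genes. Alternatives covered the pseudocount, the measure, scaling, the filter, group size, cell number range and leaving out cells. The functions were tested on simulated data with planted differences. Python 3.11.15, numpy 2.4.6, pandas 2.3.3 and scipy 1.17.1 were used.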

Additional observations from a re-analysis of the deposited data

How the results depend on the processing

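The ER lumen chaperone median stayed above 0 in all 15 alternatives and was 0.28 with a pseudocount of 5, 0.27 with no filter on low values and 0.28 with 43 against 44 cells. The counts of genes 2-fold apart moved most, given here as higher and then lower: 157 and 65 with a pseudocount of 0.1, 11 and 6 with 5, 45 and 24 for medians, 198 and 67 when scaled without the digestive enzymes, 65 and 17 with 11 against 11 cells, and 6 and 4 with 43 against 44. They were 53 and 25 in cells 49 to 91, 126 and 43 in short-total cells and 173 and 37 at 1.5-fold. The higher count alone was 39 for the ratio of mean TPM and 37 in cells 1 to 48. Median-of-ratios scaling shifted the median of all genes to 0.01 and gave 22 and 13. Leaving out cell 83, chosen after seeing the data, gave 22 and 10. Of the values of single genes under these settings, 1903 kept within the spread between cells, 45 moved and 15 reversed. Reversal was counted only for genes at least 2-fold apart in the main comparison. Sign changes of smaller differences were counted as kept or moved, such as those of Reg3g (0.60, down to -1.18) and Junb (0.70, down to -0.69). Gm44364 reversed with 11 against 11 cells (0.70). In short-total cells Alpk2 (1.82), Gm44364 (1.31), Gm12976 (0.48) and Klk1b24 (0.15) turned positive. Snord118 (-1.79), Ddit3 (-1.28), Reg2 (-1.09), Fgf21 (-0.74), Chac1 (-0.62), Rnu3b1 to Rnu3b4 (-0.22 each) and Hspa8 (-0.20) turned negative there. The cause was not tested. No paired analysis was possible because every sample is 1 cell of a single labelled group. Depth is unknown, so values of a few TPM limit detection to an unknown degree.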
